A study of Drosophila melanogaster with 6 samples.

Results

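Protocatechuic aldehyde (PA) is a catechol that carries an aldehyde group, and the enzymes described here are those that oxidise or reduce aldehydes and other carbonyl compounds in Drosophila. Members were the probe sets annotated to exactly 1 gene with the current symbol or synonym Aldh, Aldh-III, Aldh7A1, Ssadh, P5CDh1, Akr1B, Fdh, Adh or Adhr. The rule used no measured value. It found 5 probe sets, 1 each for 5 of the 9 genes (Aldh-III, Aldh7A1, Ssadh, P5CDh1 and Fdh), among 18769 probe sets tested in all. Adh and Adhr were covered by 2 probe sets annotated to both genes, which the rule leaves out, and the annotation table used here lists no probe set for Aldh or Akr1B. The text therefore rests on 4 aldehyde dehydrogenases and 1 alcohol dehydrogenase, and says nothing of Aldh or the aldose reductase Akr1B.

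S2 cells, which derive from Drosophila embryos and resemble blood cells, were grown in Schneider's medium with insulin and fetal bovine serum, treated with 0.1 mM PA or with vehicle, and harvested for RNA, with a PA exposure of 2 h. The design has 3 arrays of PA-treated cells and 3 of vehicle-treated cells, with no other genotype, dose or time. Titles and the agent field name the group of each array, but the treatment text deposited with the vehicle arrays is the same as that of the PA arrays and names PA, so that every difference given here rests on the titles and the agent field. All arrays come from this 1 cell line, and no source states that the 3 samples of a group came from separate cultures, so that the p-values reflect the spread among these samples alone, possibly technical. Values are MAS5 signals, linear intensities in arbitrary units that can be compared between arrays for 1 probe set but not between probe sets. They were tested on the log2 scale with limma, and called means an adjusted p under 0.05 over all 18769 probe sets.

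Aldehyde dehydrogenases oxidise aldehydes to carboxylic acids with NAD or NADP, and most members of the family act on aldehydes that arise inside the cell from amino acids, lipids or neurotransmitters. Alcohol dehydrogenases and aldo-keto reductases move carbonyl compounds to or from the alcohol. Among the members, P5CDh1, Ssadh and Aldh7A1 (the last known from its human relative) act in the breakdown of proline, GABA and lysine. The Aldh-III family acts on fatty aldehydes, and Fdh oxidises the adduct of formaldehyde and glutathione and also reduces nitrosoglutathione. In flies Adh is best known for the oxidation of ethanol, and Adhr is a related gene with the same annotated start and end in RefSeq.

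Markers of blood cells and of other cell types were read as a rough look at the label of S2 cells, since signals of different probe sets do not order RNA levels and cannot settle it. Of 9 measured hemocyte markers, 8 lay in the upper 50% of mean signal, and their sum ran from 31396 to 32780 over the vehicle arrays and from 32198 to 33969 over the PA arrays. Of 10 measured markers of fat body, neurons, muscle and germline, 4 lay in the upper 50%. Among the hemocyte markers Hml and NimC1 were called higher and srp lower, and the part of these markers in the results below was not tested. Called were 5.10% of all probe sets and 10.1% of those in the upper 50%. The change between groups depended on signal: with probe sets ranked into 10 deciles of mean signal, the median log2 change was -0.08 in decile 8, -0.05 in decile 9 and 0.05 in decile 10, the brightest. Hml, NimC1 and srp lay in decile 10, where 405 of 1877 probe sets were called.

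After 2 h of PA, 1 of the 5 measured members was called, with a small change, and that call held in 9 of 17 refits. P5CDh1 was lower by 12.5%, and the other 4 did not pass the test, with log2 changes from -0.11 to 0.10. The background was 5.10% of all probe sets called, of which 2.29% were higher and 2.82% lower. All 5 members lay in the upper 50% of mean signal, where 10.1% of probe sets were called, and 1 call among 5 read against that share is not a result about the members as a group. The split of the calls between directions moved with the scaling, from 429 higher and 529 lower as reported to 58 and 350 with centring on each array's median and to 988 and 211 with centring on the 75th percentile. The median log2 change of the 5 was -0.001, against -0.01 over all probe sets tested. The 95% intervals of the 5 changes together ran from -0.28 to 0.20 on the log2 scale, inside the 1.5-fold limit that the study used for its selected genes.

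**Figure D1:**
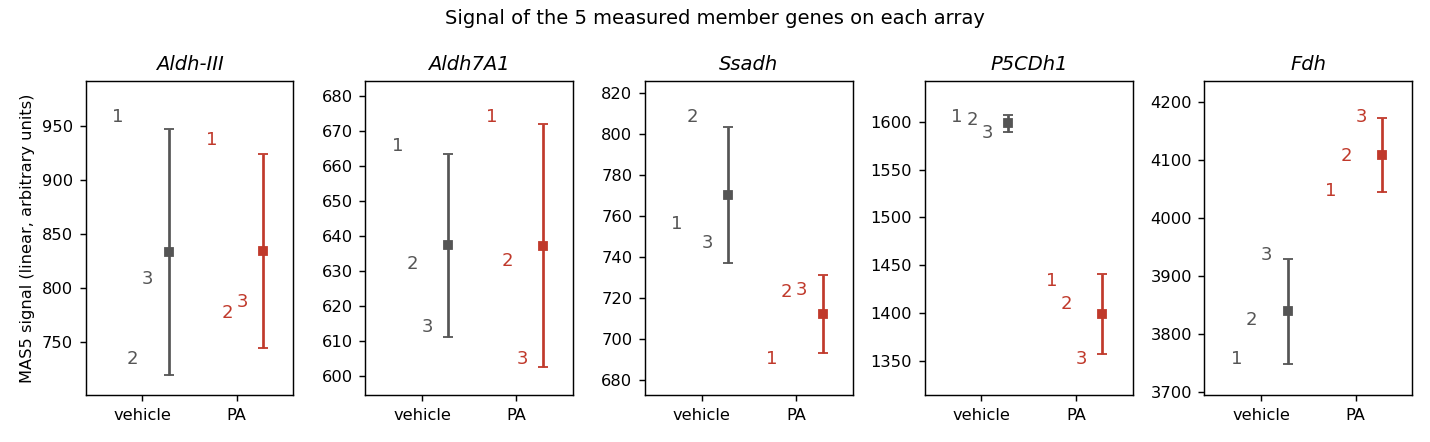
MAS5 signal (linear scale, arbitrary units, axes do not start at 0) of each measured member gene on each array. Digits are the replicate numbers of the vehicle (grey) and PA (red) arrays, and squares with bars are the mean and SD of 3 arrays. The groups do not overlap for Ssadh, P5CDh1 and Fdh, while for Aldh-III and Aldh7A1 the means nearly coincide.

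P5CDh1 (CG7145, probe set 1624726_s_at) encodes the mitochondrial dehydrogenase that turns pyrroline-5-carboxylate, in its open form glutamate semialdehyde, into glutamate. Its signal was 1605, 1602 and 1588 on the vehicle arrays and 1434, 1410 and 1352 on the PA arrays. Every PA array lay below every vehicle array, and the vehicle arrays were closer to each other (SD 8.90) than the PA arrays (SD 42.0). The mean went from 1598 ± 8.90 to 1399 ± 42.0 (SD, n = 3 each), and the log2 change was -0.19 (SE 0.04, limma adjusted p = 0.0174, 95% interval -0.28 to -0.10). The exact permutation test over the arrays gave p = 0.1 (2-sided), the smallest that 3 arrays against 3 allow. In the decile of probe sets with similar signal the median change was -0.05, and 12.1% of that decile had a change as low as P5CDh1 or lower. The call was lost without vehicle replicate 1 (adjusted p = 0.0551) or 2 (0.0603) and without PA replicate 2 (0.0573) or 3 (0.0771), with log2 changes of -0.20 to -0.17. It was also lost after quantile normalization (adjusted p = 0.0581, log2 change -0.16), after centring on each array's median (0.0911, with a larger log2 change of -0.27) or 75th percentile (0.195, log2 change -0.11) and with no trend of the variance (0.467, with the log2 change as reported).

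Ssadh (CG4685, probe set 1635280_at) encodes succinic semialdehyde dehydrogenase, which carries out the last step of GABA breakdown and delivers succinate to the tricarboxylic acid cycle. Its signal was 755.9, 808.3 and 746.6 with vehicle and 690.2, 722.8 and 723.8 with PA. The PA arrays all lay below the vehicle arrays, but the gap between the nearest arrays of the groups was smaller than the range within either group. The mean was 770.3 ± 33.2 on the vehicle arrays and 712.3 ± 19.1 on the PA arrays (SD, n = 3 each), with a log2 change of -0.11 (SE 0.05, limma adjusted p = 0.316, 95% interval -0.23 to 0.004). Less the median of its decile of signal, the change was -0.03.

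Aldh7A1 (CG9629, probe set 1623216_s_at) is the fly relative of human antiquitin, the enzyme that oxidises aminoadipate semialdehyde in lysine breakdown. Its signal was 665.8, 632.2 and 614.1 on the vehicle arrays and 674.0, 632.8 and 605.1 on the PA arrays. The groups overlapped fully, and the PA arrays covered a wider range than the vehicle arrays on both ends. The means were 637.4 ± 26.2 and 637.3 ± 34.7 (SD, n = 3 each), and the log2 change was -0.001 (SE 0.06, limma adjusted p = 0.998). Its 95% interval ran from -8.65% to 9.34%.

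Aldh-III (CG11140, probe set 1627861_s_at) belongs to the family of fatty aldehyde dehydrogenases, which oxidise long-chain aldehydes from membrane lipids. Its signal was 958.5, 734.9 and 808.7 with vehicle and 937.8, 777.6 and 787.3 with PA. Array 1 was the highest in both groups, and the spread within a group was the largest among the 5 members. The means were 834.0 ± 113.9 on the vehicle arrays and 834.3 ± 89.8 on the PA arrays (SD, n = 3 each), with a log2 change of 0.004 (SE 0.09, limma adjusted p = 0.993) and a 95% interval of -12.4% to 14.8%. Without vehicle replicate 1 the log2 change was 0.11 and without PA replicate 1 it was -0.08, neither of them called.

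Fdh (CG6598, probe set 1636740_at) is the glutathione-dependent formaldehyde dehydrogenase, a class III alcohol dehydrogenase found from bacteria to mammals. Its signal was 3757, 3825 and 3937 on the vehicle arrays and 4046, 4107 and 4174 on the PA arrays. Each PA array lay above each vehicle array, as 9.61% of all probe sets did. The mean was 3839 ± 90.6 on the vehicle arrays and 4109 ± 64.03 on the PA arrays (SD, n = 3 each), a difference of 7.03% with a 95% interval of 1.51% to 12.9%. The log2 change of 0.10 (standard error 0.04) did not pass the test (unadjusted p = 0.0157, adjusted p = 0.149 from limma). It was called after centring on each array's 75th percentile (log2 change 0.18, adjusted p = 0.0234), and was 0.02 with each array centred on its median. The median change in its decile of signal, the brightest, was 0.05, and Fdh exceeded it by 0.05.

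**Figure D2:**
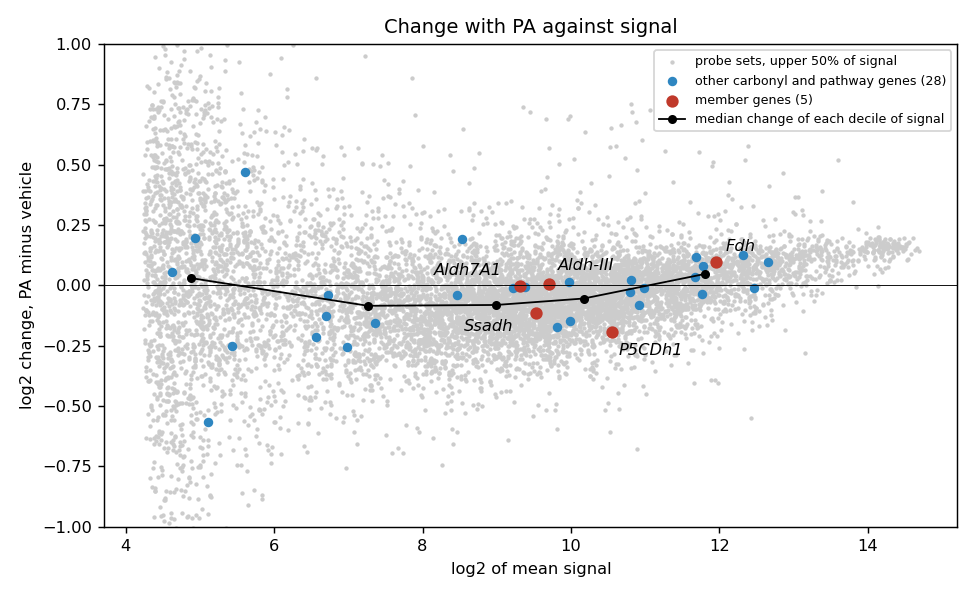
Log2 change (PA minus vehicle) against log2 mean signal for probe sets in the upper 50% of mean signal (grey), with the 5 member genes in red and 28 other carbonyl and pathway genes in blue. The black line joins the median change of each decile of signal, which is -0.08 in the decile that holds Ssadh and Aldh7A1 and 0.05 in that of Fdh, and 112 probe sets outside the axis range are not drawn.

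Without an overlap between groups were 3 of the 5 members, P5CDh1, Ssadh and Fdh, against a background of 21.5% of all probe sets and 33.0% of those in the upper 50% of signal. By the methods' t-test on log2 signals, P5CDh1 and Fdh were under 0.05, as were 14.4% of all probe sets. Neither was past the fold limits of the study, with ratios of mean signals of 0.875 and 1.07, while 1.89% of all probe sets passed that test above the upper limit and 1.23% below the lower limit. Neither passed after Benjamini-Hochberg adjustment of that test. The probe sets of Aldh-III, Aldh7A1 and P5CDh1 carry the suffix that the array's maker gives to probes shared by several transcripts, and signal from related transcripts was not measured apart.

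The probe sets annotated to both Adh and Adhr had signals of 5.75 to 37.9 (1631333_s_at) and 6.05 to 15.1 (1632699_s_at) over the 6 arrays, in the lower 50% of mean signal. Their log2 changes were -0.35 (standard error 0.73) and 0.001 (standard error 0.72), and neither was called (adjusted p = 0.888 and 0.999 from limma). With such standard errors a change of the size seen for the members could not be detected, and the values belong to neither gene alone.

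Around the members, 44 genes of carbonyl metabolism and of the pathways that feed the member enzymes were listed in 7 groups, and 43 had a probe set. None of the 43 passed the test with limma, while 8 had an unadjusted p under 0.05 (4 higher and 4 lower) against a background of 17.0% of all probe sets. By the methods' t-test 6 did, where the background was 14.4%, and 1 of them, AOX2, was also past its fold limits. The groups did not overlap for 12 of the 43 (27.9%), near the 21.5% of all probe sets. The median log2 change was 0.02, against -0.01 over all probe sets tested. For 15 genes in the lower 50% of signal the standard errors were 0.57 to 1.13, so that their values say little. The 28 in the upper 50% had log2 changes from -0.56 to 0.47 with a median of -0.01. Their standard errors ran from 0.03 to 0.49, and both ends of that range of changes were imprecise. The lowest was CG12766 (SE 0.40) and the highest DJ-1alpha (SE 0.29).

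**Figure D3:**
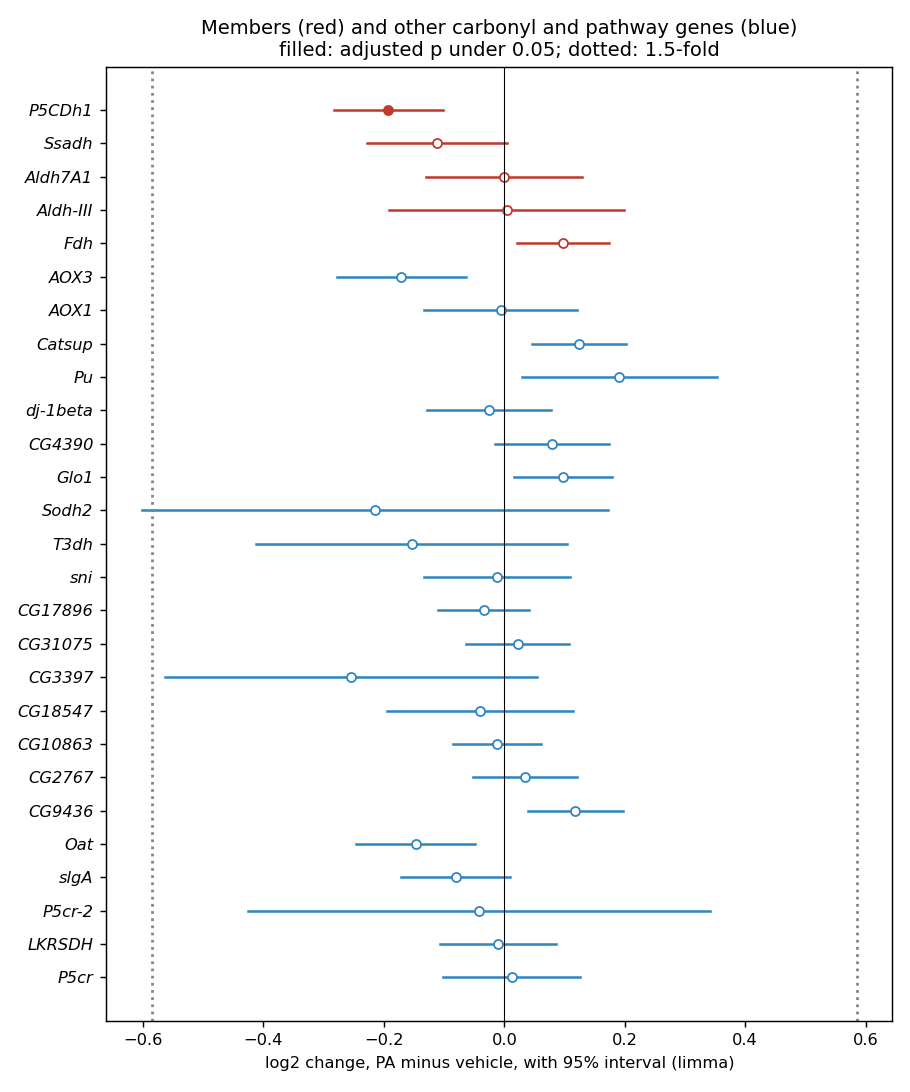
Log2 change with PA and its 95% interval from limma for the 5 member genes (red) and the 22 other carbonyl and pathway genes in the upper 50% of signal with a standard error under 0.2 (blue, in the order of their lists). Filled points passed an adjusted p under 0.05, which P5CDh1 did and the others did not, and dotted lines mark 1.5-fold.

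Oat and slgA, the neighbours of P5CDh1 in ornithine and proline breakdown, had log2 changes below 0 that did not pass the test and depended on the scaling. Oat, ornithine aminotransferase, makes the substrate of P5CDh1 from ornithine, and its signal was 1094, 1064 and 1041 with vehicle and 979, 959 and 951 with PA. All its PA arrays lay below the vehicle arrays, and the log2 change was -0.15 (SE 0.05, limma adjusted p = 0.0919). For slgA, the proline dehydrogenase that makes the same substrate from proline, the groups overlapped and the log2 change was -0.08 (SE 0.04, adjusted p = 0.362). P5cr, the reductase that turns this substrate back into proline, had a log2 change of 0.01 and LKRSDH, which opens lysine breakdown upstream of Aldh7A1, one of -0.01. Of the 8 genes in this group 0 were called, and the median log2 change was 0.001. Over the 5 of them in the upper 50% of signal it was -0.04. The GABA enzymes Gabat and Gad1, which lie upstream of Ssadh, had mean signals from 4.23 to 12.1 and could not be judged.

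Glo1 and CG4390, named from the list of dicarbonyl and S-formylglutathione hydrolysis, were not called in the fit as reported. Glo1, the glyoxalase that clears methylglyoxal as a glutathione adduct, had signals of 6061, 6255 and 6334 with vehicle and 6443, 6546 and 6965 with PA. Its groups did not overlap, and the log2 change was 0.10 (SE 0.04, limma adjusted p = 0.191), while it was 0.02 with each array centred on its median. With centring on the 75th percentile it was 0.18, and Glo1 was called (adjusted p = 0.0365). CG4390, listed with the hydrolysis of S-formylglutathione, had a log2 change of 0.08 (SE 0.04, adjusted p = 0.414), with overlapping groups. Without PA replicate 3 the log2 change was 0.06 for Glo1 and 0.03 for CG4390, and 0.09 for Fdh. Glo1 and CG4390 lie in the brightest decile of signal, where the median change was 0.05.

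Other dehydrogenases, reductases and oxidases gave no calls in the fit as reported. Among 4 other aldehyde dehydrogenases, CG17896 had a log2 change of -0.03 (adjusted p = 0.716) and CG31075 one of 0.02 (adjusted p = 0.865, 0.01 to 0.04 with 1 array left out), and the remaining 2 were dim. Of 9 measured aldo-keto reductases, CG9436 had signals of 3347, 3433 and 3495 with PA against 3224, 3154 and 3091 with vehicle, with a log2 change of 0.12 (SE 0.04, limma adjusted p = 0.0890). With each array centred on its median the log2 change of CG9436 was 0.04 (adjusted p = 0.904). With centring on the 75th percentile it was 0.20, and CG9436 was called (adjusted p = 0.00952). The median of the decile that holds CG9436 was 0.05. The aldehyde oxidase gene AOX3, whose product oxidises aldehydes with a molybdenum cofactor, had signals of 989, 933 and 921 with vehicle and 858, 829 and 839 with PA. The log2 change was -0.17 (standard error 0.05, adjusted p = 0.0696), and the groups did not overlap. For AOX3 it was -0.09 with centring on the 75th percentile (adjusted p = 0.389) and -0.25 with centring on the median, and the median of its decile was -0.05. The dim probe sets ARY and AOX2 had vehicle signals of 3.62 ± 2.55 and 12.3 ± 2.45 and PA signals of 0.476 ± 0.238 and 2.82 ± 1.16 (SD, n = 3 each), and the size of their log2 changes depended on the offset. For ARY it was -2.65 with no offset (adjusted p = 0.0844), -0.24 with an offset of 16 and -0.07 with 64, and for AOX2 it was -2.21 (adjusted p = 0.167), -0.59 and -0.19. Among 6 other alcohol dehydrogenases and carbonyl reductases, T3dh had a log2 change of -0.15 (adjusted p = 0.611), which was -0.24 without vehicle replicate 1 and -0.07 without vehicle replicate 2. Fbp2, a relative of Adh, had one of 1.39 (adjusted p = 0.546) with a single bright PA array at 19.4 among values of 1.86 to 2.93, and it was 0.42 without that array, PA replicate 2.

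Since PA is a catechol, genes of catechol metabolism in the fly were listed as well. Catsup, which restrains catecholamine synthesis, had signals of 4757, 4814 and 5079 with vehicle and 5322, 5254 and 5387 with PA. Its PA arrays lay above the vehicle arrays, with a log2 change of 0.12 (SE 0.04, limma adjusted p = 0.0705), and the log2 change was 0.04 after centring on each array's median (adjusted p = 0.9). With centring on the 75th percentile the log2 change was 0.20, and Catsup was called (adjusted p = 0.0136). It was called without vehicle replicate 3 (adjusted p = 0.0353) and not without any of the other 5 arrays (adjusted p = 0.147 to 0.207). Pu, the GTP cyclohydrolase that makes the cofactor of tyrosine hydroxylase, had a log2 change of 0.19 (SE 0.08, adjusted p = 0.193). All its PA arrays lay above the vehicle arrays, as for 9.61% of all probe sets, and the median of its decile was -0.08. Pu was called with centring on the 75th percentile (log2 change 0.27, adjusted p = 0.0391) and not with centring on the median (0.11, adjusted p = 0.703). The enzymes of dopamine synthesis themselves, ple and Ddc, had mean signals from 2.33 to 25.4 and were not called, nor were the other 3 of the 7 genes.

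The genes with the most similar course over the 6 arrays, among 7958 probe sets with 1 gene in the upper 50% of signal, were chosen for P5CDh1 and Fdh after their values were seen, because Aldh, for which this had been planned, has no probe set. For P5CDh1 they were egr, a tumour necrosis factor ligand (Pearson r = 0.996), gpp, a histone methyltransferase (0.996), and cmet, a kinetochore kinesin (0.995), all higher with vehicle. For Fdh they were CG11790 (0.997), CG30423 (0.996) and AlaRS, the alanyl-tRNA synthetase (0.994). These r values rest on 6 arrays in 2 groups and are the highest by choice. At the looser cut of r over 0.9, 6.67% of the probe sets passed with P5CDh1 and 3.95% with Fdh. The share at the r values given here was not counted.

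**Figure D4:**
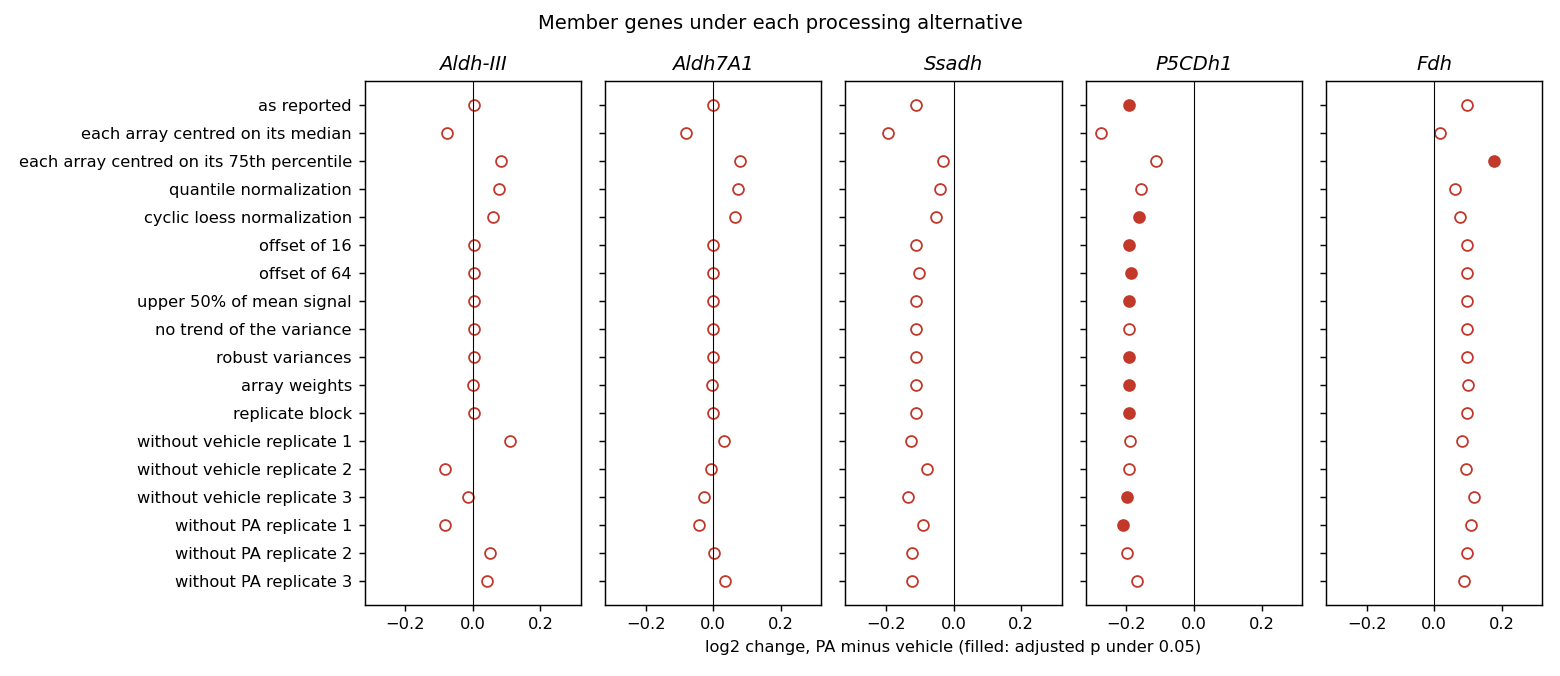
Log2 change (PA minus vehicle) of each member gene as reported and under 17 processing alternatives, with filled points for an adjusted p under 0.05. P5CDh1 stayed below 0 in all of these and passed in 9 of the 17, Fdh stayed above 0 and passed in 1, and Aldh-III and Aldh7A1 lay on both sides of 0.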

How the data were processed

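The authors hybridized RNA of 3 PA-treated and 3 vehicle-treated samples of S2 cells to 1 GeneChip Drosophila genome 2.0 array each and deposited MAS5 signals, a linear intensity for each probe set. MAS5 is named in the submitters' processing notes, with no version in the sources used here. The mean signal after trimming 2% from each end was 500.01 on each array, so no other scaling was applied. Groups came from the titles and the agent field of the labels; the treatment field reads the same in both groups. Of 18952 probe sets, 183 controls were left out. In the platform annotation 13647 of the tested probe sets have 1 gene, 402 several and 4720 none. Symbols were updated through gene identifiers for 13544 of them. No position or sequence is given, since the annotation names no genome build and no sequences were used here.

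Log2 signals without an offset were fitted in limma 3.58.1 (R 4.3.3, eBayes with a trend of variance on mean) for PA minus vehicle, with Benjamini-Hochberg adjustment over all 18769 probe sets; each adjusted p comes from it. The methods' t-test was run 2-sided (Student's) on the same log2 signals at p under 0.05, with ratios of mean signals over 1.5 or under 0.67. The study names a t-test at that threshold for its selected genes but not the scale of the signals, so counts given here need not match its own. Exact permutation tests used scipy 1.17.1 in Python 3.11.15. Where a listed gene had several probe sets, the one used had the highest mean log2 signal. Named are all members, the 2 genes with the smallest p in each of 7 lists, listed genes that adjoin a member's reaction, and the genes of similar course. CG12766 and DJ-1alpha are named as the ends of a range of changes, and ple and Ddc as the enzymes of dopamine synthesis. Members and lists were chosen with earlier results of these data known. The limma fit was tested on simulated data that held no shift between groups depending on signal, so that run cannot speak to the effect of the scaling. The precision is limited by 3 arrays per group. Alternatives were other centrings and normalizations, offsets of 16 and 64, a filter to the upper 50% of signal, other variance models, array weights, the number as a block, the methods' t-test and leaving out each array; the change less the median of its decile of signal was added after seeing the data.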

Additional observations from a re-analysis of the deposited data

How the results depend on the processing

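Over all probe sets, the counts higher and lower with PA came to 58 and 350 after centring arrays on their medians, 988 and 211 with centring on the 75th percentile, 238 and 266 after quantile normalization, 248 and 269 with cyclic loess, 270 (higher) with an offset of 16, 225 and 314 with an offset of 64, and 7 and 0 when the variance trend was left out. The methods' t-test gave 1234 and 1460 with no fold limit, 354 and 231 with the fold limits, and 14 and 0 with Benjamini-Hochberg adjustment as well. Without any single array, the higher count was 196 to 402 and the lower 262 to 412.

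The count of members lower was 0 instead of 1 with either centring, after quantile normalization, with no trend of the variance and by the t-test of the methods under its fold limits, adjusted or not. The count of members higher was 1, Fdh, with centring on the 75th percentile and by the methods' t-test without a fold limit. Leaving out 1 array gave 0 to 1 members lower, as the text on P5CDh1 details. With the replicate block, 0 members were higher and 1 was lower (P5CDh1, adjusted p = 0.0272), and 386 and 557 of all probe sets were higher and lower. The block changed no call among the members or the listed genes. The arrays share only a number: residuals of arrays with the same number correlated at -0.001, 0.019 and -0.002, and the labels tie them to no shared culture or day.

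Of the listed genes, 4 were higher with centring on the 75th percentile (CG9436, Catsup, Glo1 and Pu), 2 higher (CG9436 and Catsup) and 1 lower (AOX3) when only the upper 50% of signal was tested, which adjusts over fewer probe sets, and 1 lower (AOX2) by the t-test of the methods under its fold limits. With no fold limit that test gave 3 higher and 3 lower. Leaving out 1 array gave 0 to 1 higher (Catsup, without vehicle replicate 3) and 0 to 1 lower (ARY, without vehicle replicate 1, adjusted p = 0.0342). The cause of these changes was not tested.

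Some log2 changes near 0 changed sign, with no call on either side: Aldh-III at -0.0769 after centring on the median, -0.0006 with array weights and -0.0833 to 0.1085 without 1 array, Aldh7A1 at 0.0793 with centring on the 75th percentile, 0.0748 after quantile normalization, 0.0642 with cyclic loess and -0.0419 to 0.0359 without 1 array, CG17896 at 0.0456 with centring on the 75th percentile, and CG31075 at -0.0586 and CG4390 at -0.0017 with centring on the median. P5CDh1, Ssadh and Fdh kept their direction in all 17 refits with limma, between -0.27 and -0.11, -0.19 and -0.03, and 0.02 and 0.18. Signal over background limits the dim probe sets, since detection calls were not used here.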
